A study of Mus musculus with 6 samples.

Results

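Iron and heme handling was followed through 10 genes of iron storage, iron transport and heme breakdown: Hmox1, Blvrb, Fth1, Ftl1, Slc40a1, Slc11a1, Tfrc, Trf, Cp and Hp. They were chosen by gene symbol from a table of 22134 genes, and all 10 were found. RNA had been sequenced from 6 adipose tissue samples of wild-type (WT) mice. In 3 of them the mice had been given repeated colonic cautery injury and the tissue was creeping fat, mesenteric fat that wraps the bowel. The other 3 were mesenteric adipose tissue of mice with no injury, called controls here. Strain, sex and age are not given in the sources used here, and the labels do not say whether each sample is a separate animal. The p-values therefore speak only of the spread among these libraries, and that spread may be technical. Levels are FPKM, which are fragments divided by gene length and library total, so levels of different genes can be compared per length.

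Cells hold iron in 3 linked pools: iron bound to transferrin outside the cell, a small free pool inside it, and iron stored in ferritin. Transferrin receptor brings iron in, ferroportin is the only known exporter of iron from mammalian cells, and heme oxygenase frees iron from the heme of ingested red cells or of the cell's own proteins. In adipose tissue this recycling is mainly known from macrophages, while adipocytes take up iron for their mitochondria and secrete several plasma proteins. Iron regulatory proteins bind hairpins in mRNA when iron is scarce. A hairpin in the 5′ untranslated region (UTR) blocks translation, which RNA levels do not show, and hairpins in the 3′ UTR protect the mRNA from decay.

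The hairpins were searched for in GENCODE M21 transcripts (GRCm38, the build also called mm10) to show which of the 10 genes carry a match in sequence. The pattern was CNNNNNCAGTGN on the sense strand, followed by bases that pair with the 5 between the first C and the loop, with G-T pairs allowed. It was present in the 5′ UTR of 3 of the 10 genes and of 28 of 20873 protein-coding genes (0.134%), and in the 3′ UTR of 1 of the 10 and of 127 of 20987 (0.605%). UTRs differ in length, so these shares are not for regions of 1 size. The pattern misses hairpins with another loop or with an unpaired base among the 5 pairs, so a gene may carry more than its matches. Capitals mark the unpaired C and the loop of 6 bases.
Fth1, exon 1, chr19:9982732-9982760, plus strand: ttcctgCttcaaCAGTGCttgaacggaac
Ftl1, exon 1, chr7:45459779-45459807, minus strand: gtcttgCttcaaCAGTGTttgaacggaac
Slc40a1, exon 1, chr1:45925465-45925493, minus strand: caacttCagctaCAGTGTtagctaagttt
Tfrc, exon 19, chr16:32631219-32631247, plus strand: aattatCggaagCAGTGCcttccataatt
Tfrc, exon 19, chr16:32631598-32631626, plus strand: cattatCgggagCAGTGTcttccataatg
Tfrc, exon 19, chr16:32631663-32631691, plus strand: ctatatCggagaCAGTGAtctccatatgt
Tfrc, exon 19, chr16:32631710-32631738, plus strand: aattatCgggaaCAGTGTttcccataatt
The first 3 lie in 5′ UTRs and the 4 of Tfrc in its 3′ UTR. From the capital C at position 1 to the end of the paired bases, the ferritin hairpins differ at 1 base, C12T from Fth1 to Ftl1. A match to the pattern is a description of sequence, not evidence that the hairpin was bound in these samples. The antioxidant response pattern TGACNNNGC, on both strands, was in 0 of the 10 RefSeq promoters found for 6 of the genes (GRCm38.p6, 300 bases each) and in 12.4% of all 32851 promoters. Hmox1, Slc40a1, Trf and Hp were not among those 6. The promoters of Cp overlap each other, as do those of Tfrc. Bases outside the promoters were not searched, so elements farther away would be missed.

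Libraries held 31186018 to 43415696 fragments, recovered from the FPKM values, and the depths of the groups overlapped. Each of the 10 genes had at least 356 fragments in every library, so for them the spread between libraries and not counting is the limit. Counting does limit Hamp2, Hamp and Hephl1, named below, which had at most 15 fragments in any creeping fat library. Correlations between libraries across genes were 0.898 to 0.982 within controls and 0.952 to 0.976 within creeping fat. Control 2 weighed most on the test described below. Leaving it out raised the genes called higher from 1198 to 2896 and those called lower from 872 to 1857. Seminal vesicle genes (a list of 10) summed to 5.12% to 9.15% of all FPKM in creeping fat libraries and to 0.0164% or less in control libraries. Pancreatic genes (29) summed to 1.76% or less in creeping fat libraries and to 5.35% to 13.8% in control libraries. Control 2 had the highest pancreatic share. Both lists separated the groups, so a group difference and a difference in RNA from these glands cannot be told apart. The part of gland RNA in the levels of the iron and heme genes was not tested. The adipocyte genes Adipoq and Plin1 were present in every library (80.1 and 30.0 FPKM or more).

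In creeping fat, heme oxygenase 1 was several-fold higher and transferrin several-fold lower than in uninjured mesenteric fat, and no other of the 10 genes passed the test. Hmox1 rose from 27.0 ± 6.28 to 95.3 ± 7.97 FPKM and Trf fell from 1141 ± 581 to 272.9 ± 61.6 FPKM (SD, n = 3). The other 8 genes ranged in log2 fold change from -0.34 (Hp) to 1.01 (Slc11a1). All 10 passed the filter of 1 FPKM in at least 3 libraries. Each fold change is the mean of log2(FPKM + 1) in creeping fat less that in controls. Calls were made in limma over the 12812 genes tested, at a threshold of 0.05 for the adjusted p. Of the 10 genes 1 was higher, where 9.35% of all tested genes were, and 1 lower, where 6.81% were. In either direction 2 of 10 stand beside 16.2% of all genes, a share near the background. Their median log2 fold change was 0.35, against 0.02 over all genes. The groups did not overlap in 4 of the 10, and in 37% of all tested genes. Hmox1, Blvrb and Fth1 lay higher, as 20.2% of all tested genes did, and Trf lower, as 16.9% did. Without control 2 the count of higher genes was 4 (Hmox1, Blvrb, Slc40a1 and Slc11a1), where 22.6% of all tested genes were higher, and 1 was lower (Trf), where 14.5% were.

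**Figure D1:**
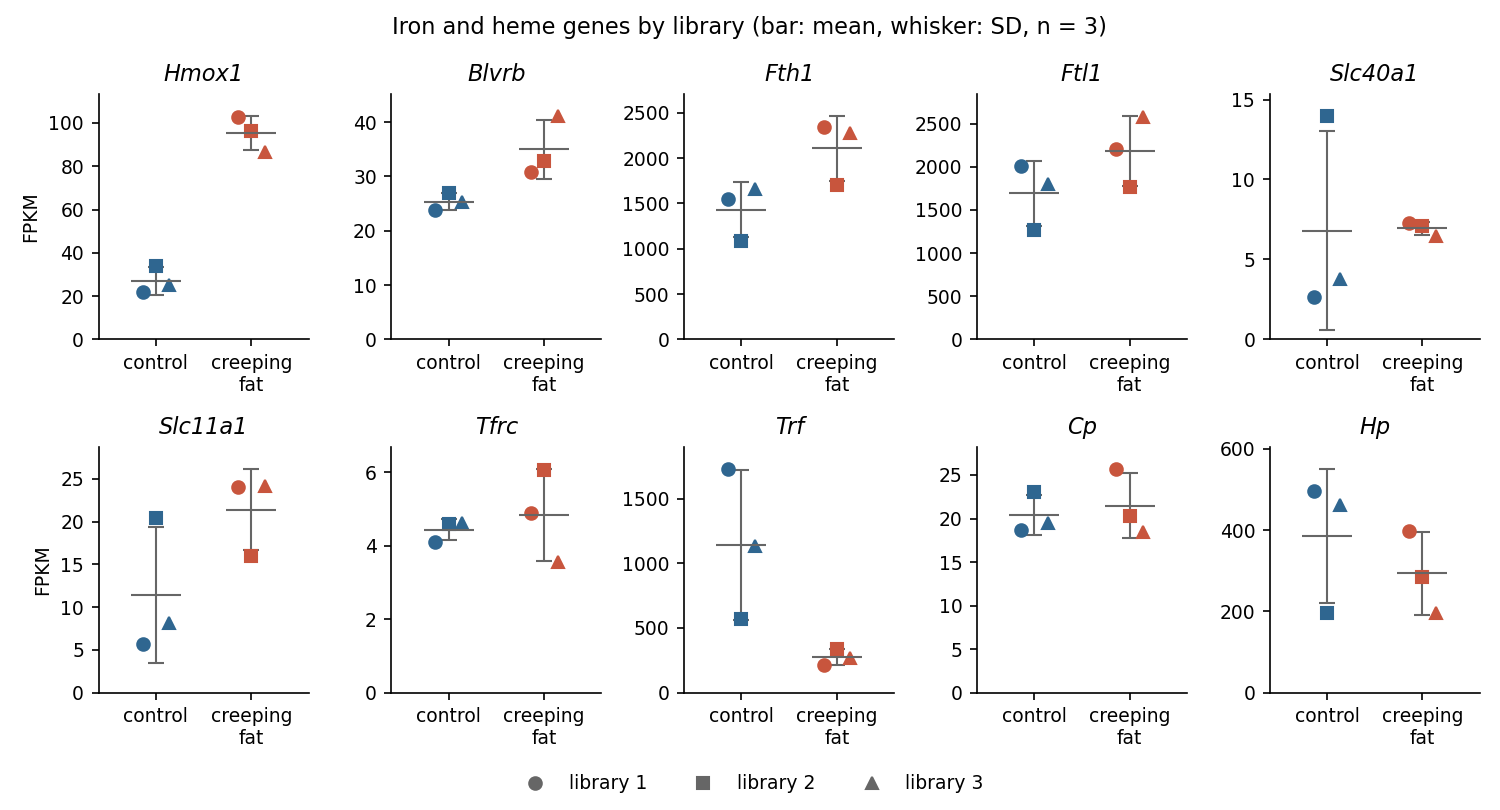
FPKM of the 10 genes in each library, on linear axes that start at 0; each point is a library, horizontal bars are group means and whiskers SD (n = 3). Hmox1 lies higher and Trf lower in all 3 creeping fat libraries than in any control, while control 2 lies above both other controls in Slc40a1 and Slc11a1 and below both in Fth1, Ftl1, Trf and Hp.

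Heme breakdown was represented by its first enzyme and by a reductase that acts after it. Hmox1 (chr8:75093621-75100589, plus strand) encodes the inducible heme oxygenase, which opens the heme ring and frees iron, carbon monoxide and biliverdin. Its levels were 102.6, 96.5 and 86.8 FPKM in creeping fat 1 to 3 and 22.0, 34.0 and 25.0 FPKM in control 1 to 3. Every creeping fat library lay above every control, with the highest control still under the lowest creeping fat library. The log2 fold change was 1.80 ± 0.19 (SE; limma adjusted p = 0.00272), and it passed under every one of the 16 other settings, each single library left out included. Its lowest value was 1.67, without control 1.

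Blvrb (chr7:27447978-27466144, plus strand) encodes biliverdin reductase B, which also reduces flavins. It stood at 30.9, 32.9 and 41.2 FPKM in creeping fat and 23.8, 27.0 and 25.4 FPKM in controls, so all 3 creeping fat libraries lay above the controls by a small margin. The fold change of 0.44 ± 0.16 did not pass (limma adjusted p = 0.105). It passed without control 2 (0.48, adjusted p = 0.0467). Within a library, the ratio of Hmox1 to Blvrb FPKM was 3.32, 2.93 and 2.11 in creeping fat and 0.923, 1.26 and 0.984 in controls. The ratios of the groups did not overlap. Hmox1 stood above Blvrb in every creeping fat library and in control 2, and slightly below it in controls 1 and 3. The difference of the mean log2 ratio was 1.39, with an SD of 0.34 in creeping fat and 0.24 in controls. No p is given for ratios, because the smallest that an exact two-sided permutation test of 3 libraries against 3 allows is 0.1.

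Per length, the ferritin chains had the highest mean levels of the 10 genes in both groups, although Trf lay above Fth1 in control 1. Fth1 (chr19:9980598-9985098, plus strand) encodes the heavy chain, which oxidises iron for storage, and Ftl1 (chr7:45457944-45459884, minus strand) the light chain, which helps to form the iron core. Both transcripts carry the 5′ UTR hairpin shown above. Fth1 stood at 2347, 1698 and 2280 FPKM in creeping fat and 1552, 1084 and 1655 FPKM in controls. The lowest creeping fat library was barely above the highest control, and the fold change of 0.57 ± 0.26 did not pass (limma adjusted p = 0.198, 95% interval -0.05 to 1.19).

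Ftl1 stood at 2203, 1765 and 2578 FPKM in creeping fat and 2006, 1266 and 1798 FPKM in controls. Its groups overlapped, since creeping fat 2 lay below controls 1 and 3. The fold change was 0.38 ± 0.27 (limma adjusted p = 0.41, 95% interval -0.27 to 1.02). Control 2 was the lowest of all 6 libraries in both chains. Without it the fold changes were 0.38 for Fth1 and 0.18 for Ftl1, and neither passed. The ratio of heavy to light chain within a library was 1.06, 0.962 and 0.884 in creeping fat and 0.774, 0.856 and 0.92 in controls, so the 2 transcripts were close to equal per length and the groups overlapped. Both ferritin genes have many processed pseudogenes, and fragments shared with these may have been split in unknown ways.

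Iron export from the cell and from the phagosome were both read with a wide spread among controls. Slc40a1 (chr1:45908068-45926523, minus strand) encodes ferroportin. Its levels were 7.26, 7.08 and 6.49 FPKM in creeping fat and 2.63, 13.98 and 3.80 FPKM in controls. The creeping fat libraries lay close together, above controls 1 and 3 and below control 2. The fold change of 0.31 ± 0.49 did not pass (limma adjusted p = 0.733). It was 0.93 without control 2 (adjusted p = 0.00476) and -0.10 without control 1 (adjusted p = 0.917). Leaving out control 2 thus changed its call, and leaving out control 1 its sign. The median over all tested genes was 0.13 without control 2.

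Slc11a1 (chr1:74375195-74386062, plus strand) encodes NRAMP1, which moves iron and other metal ions out of the phagosomes of macrophages and neutrophils. It stood at 24.1, 15.9 and 24.2 FPKM in creeping fat and 5.73, 20.4 and 8.09 FPKM in controls. Control 2 again lay among the creeping fat libraries, above creeping fat 2. The fold change was 1.01 ± 0.43 (limma adjusted p = 0.163), and 1.49 without control 2 (adjusted p = 0.00324). It was 0.66 without control 1 (adjusted p = 0.351).

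**Figure D2:**
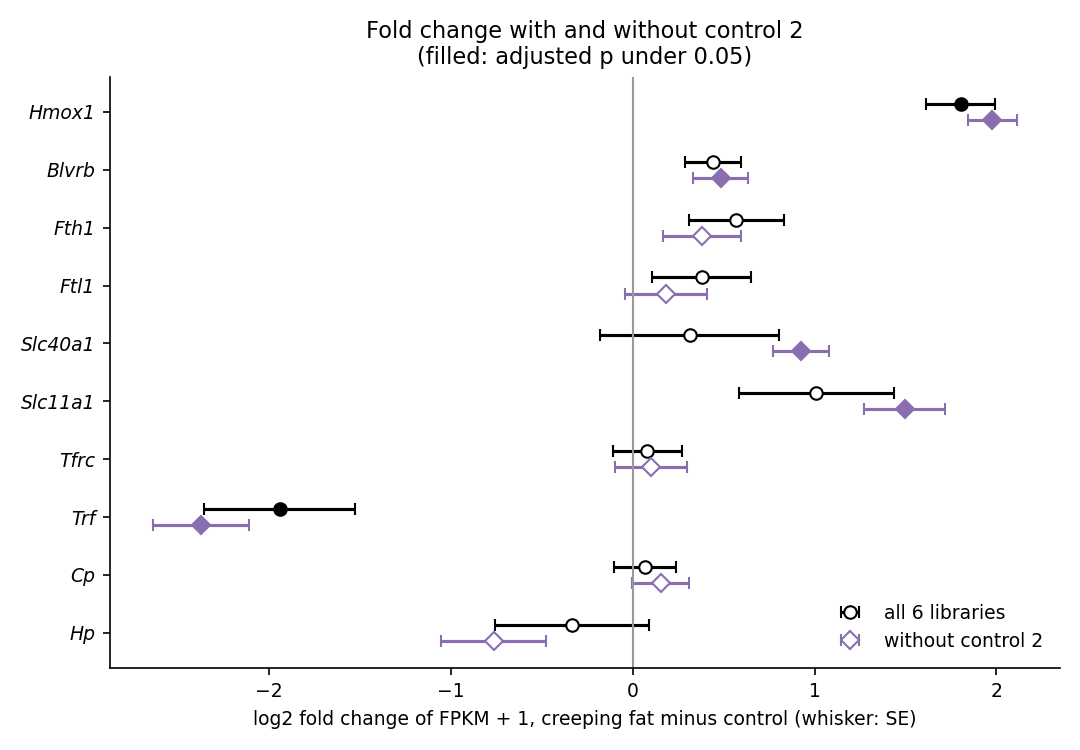
Log2 fold change of FPKM + 1, creeping fat minus control, for the 10 genes with all 6 libraries (circles) and without control 2 (diamonds); whiskers are SE and filled symbols have an adjusted p under 0.05. Slc40a1 moves from 0.31 to 0.93 and Slc11a1 from 1.01 to 1.49 without control 2, while Tfrc and Cp stay near 0.

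Iron uptake through transferrin was split between a carrier that fell and a receptor that did not pass. Trf (chr9:103204001-103230444, minus strand) encodes transferrin, the iron carrier of plasma, made mainly by the liver. Its levels were 215, 338 and 266 FPKM in creeping fat and 1727, 566 and 1131 FPKM in controls. All creeping fat libraries lay below all controls, and control 2 was the nearest to them. The fold change was -1.94 ± 0.42 (limma adjusted p = 0.0228). The call was lost when any 1 library other than control 2 was left out. The adjusted p was then 0.0982, 0.051 and 0.0842 without creeping fat 1 to 3, 0.0512 without control 1 and 0.0886 without control 3. It was 0.0012 without control 2. The fold change stayed between -1.57 (without control 1) and -2.38 (without control 2).

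Tfrc (chr16:32608920-32632794, plus strand) encodes the transferrin receptor, and its 3′ UTR carries the 4 matches shown above. It stood at 4.89, 6.06 and 3.55 FPKM in creeping fat and 4.11, 4.58 and 4.62 FPKM in controls. The highest and the lowest of the 6 values were both in creeping fat, with the controls between them. The fold change was 0.08 ± 0.19 (limma adjusted p = 0.83), with a 95% interval from -0.37 to 0.53, so a change of either sign up to those sizes is not excluded. The ratio of Slc40a1 to Tfrc within a library was 1.48, 1.17 and 1.83 in creeping fat and 0.64, 3.05 and 0.823 in controls. Control 2 had the highest ratio and controls 1 and 3 the lowest.

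Plasma proteins that bind hemoglobin or oxidise iron did not pass. Cp (chr3:19957054-20009145, plus strand) encodes ceruloplasmin, the copper oxidase that loads iron onto transferrin. It stood at 25.7, 20.3 and 18.5 FPKM in creeping fat and 18.7, 23.0 and 19.5 FPKM in controls. The groups overlapped fully, and the fold change was 0.07 ± 0.17 (limma adjusted p = 0.846, 95% interval -0.34 to 0.47).

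Hp (chr8:109575128-109579172, minus strand) encodes haptoglobin, an acute-phase protein of liver and adipose tissue that captures free hemoglobin. Its levels were 398, 285 and 196 FPKM in creeping fat and 497, 195 and 462 FPKM in controls. Controls 1 and 3 were the highest libraries and control 2 the lowest. The fold change was -0.34 ± 0.43 (limma adjusted p = 0.665), and -0.77 without control 2 (adjusted p = 0.0801).

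Several of these genes moved with markers of the cells that make up the tissue. In bulk RNA, fewer cells of a type and less RNA per cell cannot be told apart. Of 13 macrophage markers 9 rose and none fell. Their summed share of all FPKM was 1.63%, 1.04% and 1.65% in the creeping fat libraries and 0.231%, 0.536% and 0.402% in the control libraries, each in the order 1 to 3. Control 2 was the control with the highest share, as it was for Hmox1, Slc40a1 and Slc11a1. Adgre1 and Cd68, the first markers on the list, were at 58.4 to 80.8 and 116 to 175 FPKM in creeping fat and at 11.8 to 34.6 and 23.9 to 62.3 FPKM in controls.

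Relative to that list, levels were set as FPKM per 1000 FPKM of macrophage markers, a measure chosen after the data were seen. Hmox1 stood at 19.2, 26.2 and 14.9 in creeping fat and 26.1, 18.6 and 17.9 in controls on this scale. The groups overlapped, with and without Lyz2, the most abundant marker. Slc40a1 was at 1.36, 1.92 and 1.12 in creeping fat and 3.12, 7.63 and 2.73 in controls, lower in every creeping fat library. Slc11a1 was at 4.51, 4.33 and 4.15 in creeping fat and 6.81, 11.2 and 5.81 in controls, also lower in every one. The list itself was higher in creeping fat, so any gene that rose less than the list comes out lower on this scale. The part of macrophage RNA in the levels of these genes was not tested.

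Adipocyte markers moved the other way. Of 12 markers 11 fell. Their summed share of all FPKM was 0.35%, 0.851% and 0.49% in the creeping fat libraries and 4.26%, 1.52% and 3.75% in the control libraries. The order of the 6 libraries by this share was the order of Trf. Per 1000 FPKM of adipocyte markers Trf stood at 187, 112 and 154 in creeping fat and 111, 109 and 87.0 in controls. On that scale creeping fat lay higher, by very little in creeping fat 2. Hp was at 347, 94.8 and 113 in creeping fat and 32.1, 37.6 and 35.5 in controls, higher in every creeping fat library. The list itself was lower in creeping fat, so any gene that fell less than the list comes out higher on this scale. The part of adipocyte RNA in the levels of Trf and Hp was not tested. Fibroblast markers rose in 8 of 8, with a summed share of 3.76%, 3.7% and 2.78% of all FPKM in the creeping fat libraries and 0.305%, 0.268% and 0.344% in the control libraries. The groups lay far apart in this list, and its part in the levels of the 10 genes was not tested.

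**Figure D3:**
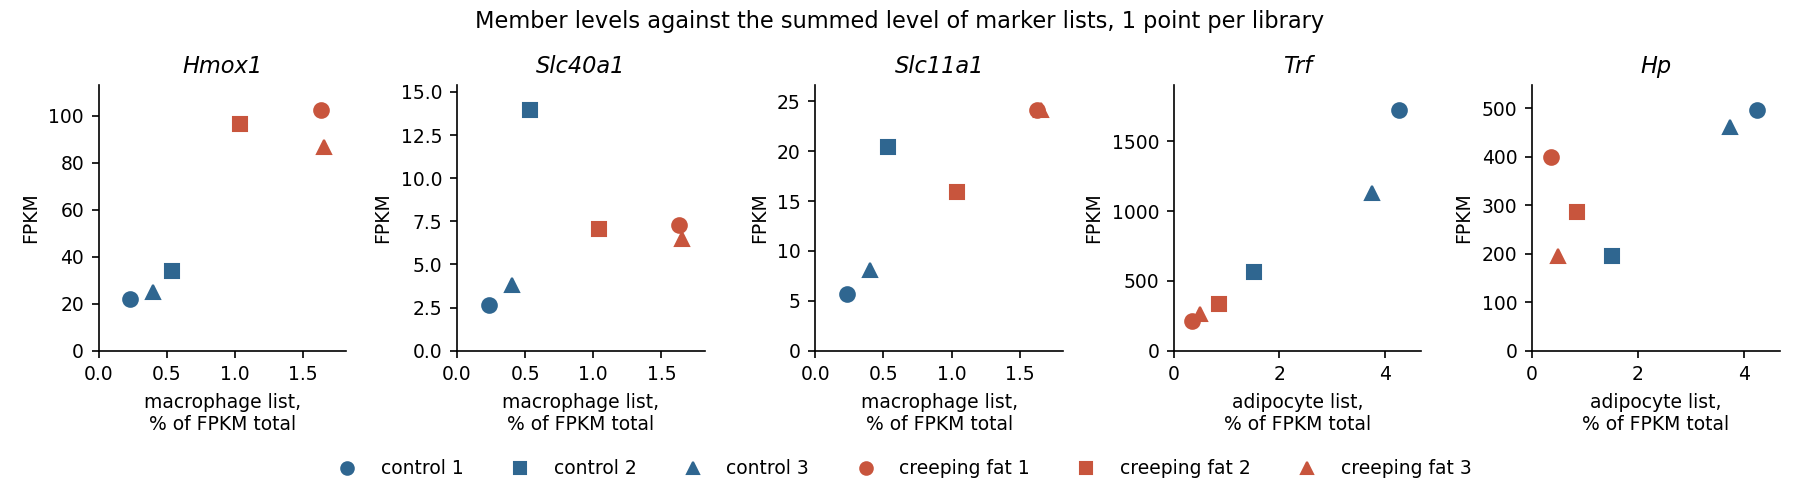
FPKM of 5 genes against the summed level of macrophage or adipocyte markers as a percentage of the FPKM total, 1 point per library, control in blue and creeping fat in red. Trf follows the order of the adipocyte share in all 6 libraries, while Slc40a1 is highest in control 2, which has the highest macrophage share of the controls.

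Summed markers of liver and red cells did not separate the groups, and those of neutrophils did by a small margin. The liver list summed to 0.00509% to 0.0156% of all FPKM over the 6 libraries. Its first markers, Alb and Apoa1, were at 6.73 to 32.2 and 0.495 to 5.06 FPKM. The part of liver RNA in the levels of Trf and Hp was not tested. Of 7 tested liver markers 1 fell, Serpina1a. Of 5 tested red cell markers, globins included, limma and voom called none. Of these 5, 0 had a positive log2 fold change, with a median of -0.61 against 0.02 over all tested genes. In 1 of them every creeping fat library lay below every control, as in 16.9% of all tested genes. Unadjusted, 2 were under 0.05, where 30.8% of all tested genes were. The red cell list held 0.216%, 0.0786% and 0.103% in creeping fat and 0.17%, 0.179% and 0.235% in controls, so its groups overlapped. Its part in the level of Hmox1 was not tested. Of 7 tested neutrophil markers 1 rose (S100a8) and 1 fell (Elane); Serpina1a and Elane were chosen after their values were seen. S100a8 and S100a9, the first on that list, stood at 18.1 to 54.9 and 19.4 to 56.5 FPKM in creeping fat and at 3.35 to 11.3 and 3.93 to 17.7 FPKM in controls. The list held 0.0163% to 0.0454% in creeping fat and 0.00349% to 0.0158% in controls, so the groups did not overlap, and its part in the level of Slc11a1 was not tested.

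The other genes of iron and heme handling, 76 in the table and 66 of them tested, were called in shares near those of all genes: 7 rose and 6 fell of 66, beside 9.35% and 6.81% of all tested genes. Their median log2 fold change was -0.09. Among 9 tested genes of iron uptake and reduction 3 rose and none fell. Steap2 and Steap3, reductases that make iron ready for transport, rose by 1.36 ± 0.18 and 1.03 ± 0.17 (limma adjusted p = 0.00486 and 0.00999). Slc39a14, which encodes ZIP14, an importer of iron not bound to transferrin, rose by 1.30 ± 0.29 (adjusted p = 0.027). It stood at 21.1, 18.9 and 9.98 FPKM in creeping fat and 5.05, 5.33 and 7.50 FPKM in controls, so the groups did not overlap. Among 4 tested genes of export oxidases and iron chaperones limma and voom called none, and 1 was under 0.05 unadjusted (Heph), where 30.8% of all tested genes were. Pcbp1, a chaperone that delivers iron to ferritin, differed by 0.28 ± 0.17 (adjusted p = 0.323).

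Heph, chosen after its values were seen, encodes hephaestin, an oxidase that works with ferroportin. It stood at 6.56, 6.17 and 5.26 FPKM in creeping fat and 15.0, 6.41 and 18.0 FPKM in controls. Control 2 lay with creeping fat. The fold change was -0.91 ± 0.35 (limma adjusted p = 0.127), and -1.32 without control 2 (adjusted p = 0.0011).

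Regulators of systemic and cellular iron had 3 lower genes and 1 higher gene of 8 tested, beside 6.81% and 9.35% of all tested genes. Hamp2, a hepcidin gene, fell by 1.95 ± 0.23 (limma adjusted p = 0.00366) at low levels, 2.18, 4.55 and 2.90 FPKM in controls and at most 0.127 FPKM in creeping fat. It had 154 fragments in controls and 3 in creeping fat, a ratio of 47.0 per fragment sequenced (95% exact Poisson interval 15.8 to 230, counting error only). Pancreatic markers had the same direction, and their part in the level of Hamp2 was not tested. Hamp, another hepcidin gene, was too low for the test, with 0 to 15 fragments per library. It stood at 0.272, 1.05 and 0.524 FPKM in creeping fat and 0, 0.236 and 0.453 FPKM in controls. The groups of Hamp overlapped, and it was chosen after its values were seen. Bmp6, the signal that induces hepcidin in liver, fell by 1.31 ± 0.16 (adjusted p = 0.00418), from 10.5 ± 1.64 to 3.62 ± 0.43 FPKM (SD, n = 3).

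Of the iron regulatory proteins that read the hairpins, Aco1 (IRP1, also cytosolic aconitase) fell and Ireb2 (IRP2) did not pass. Aco1 stood at 17.1, 23.6 and 19.7 FPKM in creeping fat and 58.4, 29.8 and 52.6 FPKM in controls. All creeping fat libraries lay below all controls. Its fold change was -1.14 ± 0.27 (limma adjusted p = 0.0328), and that of Ireb2 was 0.07 ± 0.15 (adjusted p = 0.814). The libraries ranked by Aco1 as they did by the adipocyte share, which they did not by Hamp2 or Bmp6. The part of adipocyte RNA in the levels of these regulators was not tested. Neo1, a co-receptor in hepcidin signalling with many other roles, rose by 0.92 ± 0.24 (adjusted p = 0.0434); it is outside the rule for named genes and was chosen after its values were seen, as was Ireb2.

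Of 13 genes of mitochondrial iron and iron-sulfur clusters 2 fell, where 6.81% of all tested genes did. They were Glrx5, lower by 1.07 ± 0.28, and Nfs1, lower by 0.73 ± 0.17 (limma adjusted p = 0.046 and 0.0317). Both act in the assembly of iron-sulfur clusters. The libraries ranked by Nfs1 as they did by the adipocyte share, but not by Glrx5. The part of adipocyte RNA in the levels of Nfs1 and Glrx5 was not tested. Of the 11 genes of heme synthesis none was called by limma on FPKM. Unadjusted, 4 were under 0.05, where 30.8% of all tested genes were. With voom on recovered fragments 1 was lower, Uros (log2 fold change -0.75, adjusted p = 0.0274). The median fold change of the 11 genes was -0.45, against 0.02 over all tested genes. Of the 11, 1 had a positive one, where 6619 of all 12812 tested genes did. The part of adipocyte RNA in the levels of these 11 genes was not tested. Alas1, the rate-limiting enzyme outside red cells, stood at 30.1, 26.8 and 35.5 FPKM in creeping fat and 61.5, 27.6 and 47.0 FPKM in controls. Control 2 was again within the range of creeping fat. The fold change of Alas1 was -0.48 ± 0.29 (adjusted p = 0.329), and -0.79 without control 2 (adjusted p = 0.0134).

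Among 12 genes of heme transport and breakdown 1 rose and 1 fell, beside 9.35% and 6.81% of all tested genes. Lrp1, a large endocytic receptor that takes up heme bound to hemopexin among many other ligands, rose by 1.20 ± 0.18 (limma adjusted p = 0.00775), from 129 ± 21.1 to 296 ± 30.5 FPKM (SD, n = 3). Hebp1, a cytosolic heme-binding protein, fell by 1.65 ± 0.27 (adjusted p = 0.00945). The libraries ranked by Hebp1 as they did by the adipocyte share, and the part of adipocyte RNA in its level was not tested. Cd163, the macrophage receptor for haptoglobin bound to hemoglobin, did not follow the other macrophage markers in sign. It stood at 5.02, 13.6 and 10.4 FPKM in creeping fat and 20.4, 12.6 and 28.2 FPKM in controls. The groups overlapped, and its fold change was -1.03 ± 0.40 (adjusted p = 0.131) and -1.32 without control 2 (adjusted p = 0.0298). Cd163 was chosen after its values were seen.

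Regulators of the response to heme and oxidants had 2 higher genes of 9 tested, where 9.35% of all tested genes were higher. Nfe2l2 encodes NRF2, an activator of Hmox1 and of ferritin genes, and Bach1 a repressor of the same genes that heme inactivates. Nfe2l2 stood at 54.9, 41.6 and 51.6 FPKM in creeping fat and 28.8, 29.4 and 26.0 FPKM in controls. Bach1 stood at 17.3, 16.7 and 16.2 FPKM in creeping fat and 6.81, 11.4 and 8.63 FPKM in controls. The groups did not overlap in either gene, so the activator and the repressor were both higher, by 0.79 ± 0.15 and 0.86 ± 0.19 (limma adjusted p = 0.0173 and 0.0242).

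**Figure D4:**
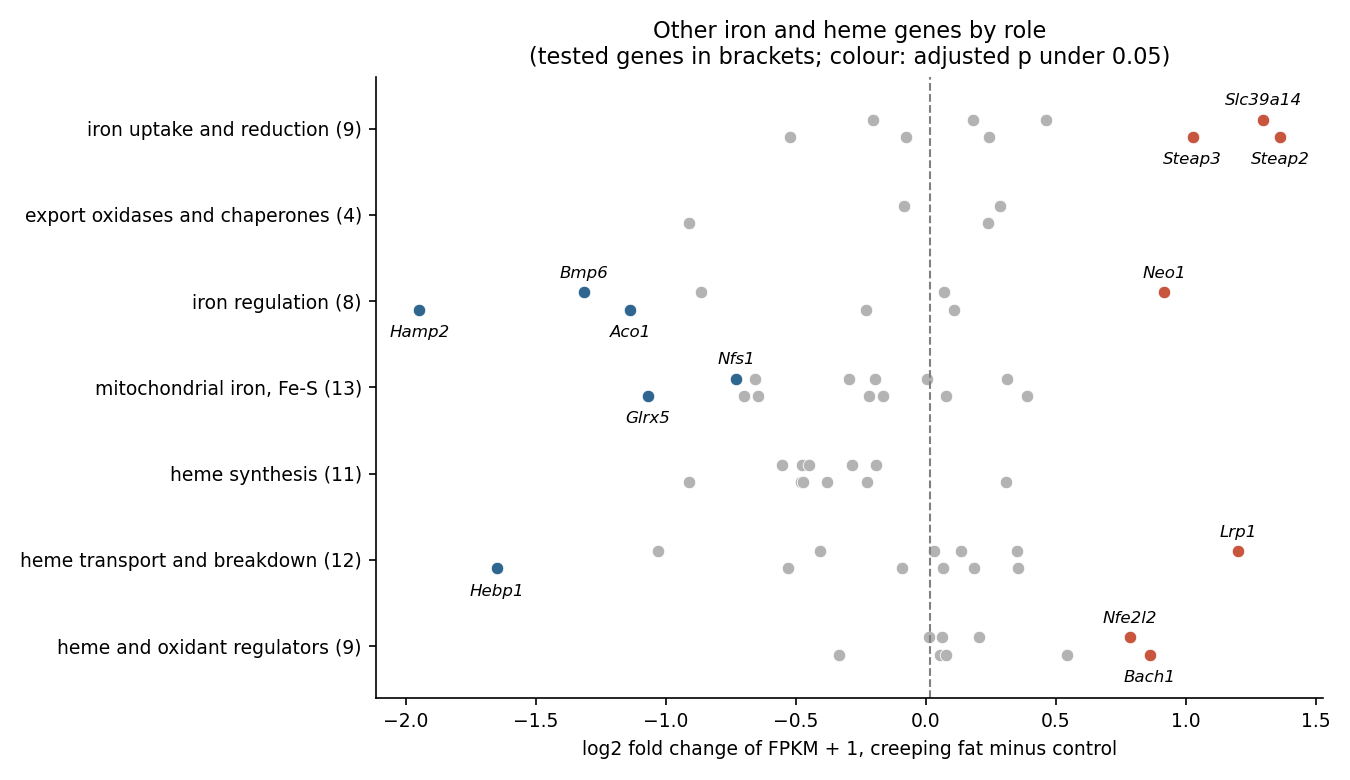
Log2 fold change of FPKM + 1, creeping fat minus control, of the 66 other tested iron and heme genes, 1 point per gene, in rows by role; red and blue points passed the test as higher and lower, and the dashed line is the median of all tested genes (0.02). The 7 higher genes lie in 4 of the 7 rows, and no gene of heme synthesis is coloured.

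Some of these calls rest on single libraries. Steap2, Hamp2, Bmp6, Hebp1 and Lrp1 passed with each library left out in turn, and Steap3 missed the threshold without creeping fat 1 (adjusted p = 0.0514). Aco1, Glrx5, Nfs1, Neo1 and Bach1 missed it without any 1 library other than control 2, with adjusted p of 0.0666 to 0.129, 0.114 to 0.158, 0.0721 to 0.134, 0.0577 to 0.145 and 0.0525 to 0.0999. Slc39a14 missed it without creeping fat 1 or 2 or control 1 or 3 (adjusted p = 0.0599 to 0.102), and Nfe2l2 without creeping fat 1 or 3 or control 3 (0.0779 to 0.0833). Without control 2, 10 of the 66 genes were higher and 24 lower, where 22.6% and 14.5% of all tested genes were. With any 1 of the other 5 libraries left out, 2 to 4 were higher and 3 lower.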

How the data were processed

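The authors deposited 1 table of FPKM values for 22134 gene symbols in 6 libraries. Per the labels' protocols, total RNA with a RIN of at least 7 was made into stranded libraries after ribosomal RNA removal. The 1 genome build listed, per the submitters' processing notes, is mm10. Aligner, counting program, annotation and strand setting are not given in the sources used here, so fragments of overlapping or antisense genes cannot be told apart. FPKM depend on each library's total.

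Library totals were recovered from the FPKM, since values of a gene are whole multiples of 1 fragment. Whole numbers within 0.005 were found for all 18714 genes above 0. For genes seen in few libraries some length nearly always gives whole numbers.

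Genes that reached 1 FPKM in 3 or more libraries were tested as log2(FPKM + 1) in limma 3.58.1 (R 4.3.3): group as the only term, eBayes with trend, two-sided, Benjamini-Hochberg adjustment over all 12812 genes. The script was tested on simulated data. Because of the added 1, fold changes understate those of low genes. Alternatives were 2 other pseudocounts, 2 filters, quantile normalization, rescaling without seminal vesicle and pancreatic genes, robust eBayes and a replicate block. Others were libraries left out, and voom on recovered fragments, the last chosen after the data were seen. The rescaling changes library totals only and does not take gland RNA out of other genes.

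The 10 genes, the pathway lists and the marker lists were chosen with earlier results of these data known. Named were the 10 genes and, of each other pathway list, up to 3 called genes of largest change or, with none, the most abundant tested gene. Of 78 other pathway symbols 76 were matched in the table.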

Additional observations from a re-analysis of the deposited data

How the results depend on the processing

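Hmox1 kept its direction and its call under all 16 alternatives. The count of lower genes among the 10 was 0 with no expression filter (Trf at an adjusted p of 0.0537) and with the replicate block (0.0664), and the cause was not tested. With 1 library left out, the counts over all genes were 576 to 2896 higher and 287 to 1857 lower. Among the 10 genes they were 1 to 4 and 0 to 1, and among the other pathway genes 2 to 10 and 3 to 24. Each highest count came without control 2. Without replicate 2 of both groups, 2713 and 1731 genes were called, with 3 of the 10 genes higher and 11 and 22 of the other pathway genes. Sign changes, all in genes that had not passed, were Slc40a1 at -0.0966 without control 1 (range with 1 library left out -0.0966 to 0.927), Tfrc at -0.069 without creeping fat 2 (-0.069 to 0.247), Cp at -0.0646 without creeping fat 1 (-0.0646 to 0.162) and Spic at 0.33 without control 2 (-0.676 to 0.33). Without replicate 2 of both groups, Tfrc was at -0.0492 and Spic at 0.40. Tfrc and Spic could not be tested under a filter on a mean of 5 FPKM. The cause of these changes was not tested.

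Replicate numbers gave no sign of pairing the samples. Deviations of same-numbered libraries from their group means correlated at -0.181, -0.18 and -0.081. With 3 libraries in a group these values cannot exclude pairing. With the replicate block 636 genes were higher and 378 lower, and of the other pathway genes 3 and 3.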

Other observations

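Spic, which encodes a transcription factor of iron-recycling macrophages of the spleen, had 1.90, 1.45 and 1.83 FPKM in the creeping fat libraries and 1.20, 7.57 and 1.13 FPKM in the controls, each in the order 1 to 3. It was chosen after its values were seen. Control 2 was the highest library for Spic as for Slc40a1, and its adipocyte share was the lowest of the controls. Hephl1, another oxidase of the hephaestin family too low for the test and also chosen after its values were seen, stood at 4.42, 0.39 and 3.04 FPKM in controls and at most 0.0762 FPKM in creeping fat.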
